A study of Mus musculus with 2 samples.

Results

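GATA4 occupied sites (OS) were examined at 10 genes of the Hippo pathway and its angiomotin partners: Amotl1, Amotl2, Lats1, Lats2, Yap1, Wwtr1, Tead1, Tead4, Ctgf and Cyr61. The genes were chosen by their place in the pathway with their peaks in these data already known, and an OS was selected by its position alone, when its midpoint lay in a member's gene body or at most 50 kb from it. Of 4409 common OS, 10 met this rule, and of the 10 genes, 4 held at least 1: Amotl2 with 5, Amotl1 and Tead1 with 2 each, and Wwtr1 with 1. No common OS was found within that distance of Lats1, Lats2, Yap1, Tead4, Ctgf or Cyr61.

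GATA4 was immunoprecipitated with the antibody GATA4 C-20 from formaldehyde-fixed whole liver of adult mice, C57BL/6 x Sv129 by strain and 2 to 3 months old by the labels, and the recovered DNA was sequenced (ChIP-seq) beside liver input DNA that had not been immunoprecipitated. The paper's methods give these mice an age range that starts and ends later than that of the labels. The labels name no genotype and no treatment for either sample. The study's methods describe 2 biological replicates, each made of the livers of 2 mice, but the peak lists cover both together, so there is 1 ChIP sample, no value per replicate and no error between replicates. An OS is a region called by both peak callers, SPP and MACS2. The files give its place and its number in each list but no read count and no strength, since every peak carries the same score of 1000. The depth behind a single OS is therefore unknown, and nothing below is a test.

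In the Hippo pathway, the kinases LATS1 and LATS2 phosphorylate the coactivators YAP1 and TAZ (the latter encoded by Wwtr1) and keep them out of the nucleus. Unphosphorylated YAP1 and TAZ enter the nucleus, bind the TEAD factors and raise transcription of targets such as Ctgf and Cyr61. The angiomotins are junction- and actin-associated scaffold proteins that bind YAP1 and hold it in the cytoplasm, and Amotl2 is itself a known YAP target. In liver the pathway restrains organ size and is known for its part in hepatocyte and biliary identity. GATA factors recognise the core sequence GATA flanked by preferred bases.

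The sequences below belong to the OS within 5 kb of any annotated transcription start site (TSS) of a member and to the OS with the lowest list number of each member, and they show how unlike each other these sites are. They are plus-strand reference sequence of NCBI Build 37 (mm9), 5′ to 3′, and capitals mark the GATA motif, here the letters GATA on either strand with A or T before them and A or G after them. The position of each, counted from 1, stands in the account of its gene.
Amotl1 OS 2924: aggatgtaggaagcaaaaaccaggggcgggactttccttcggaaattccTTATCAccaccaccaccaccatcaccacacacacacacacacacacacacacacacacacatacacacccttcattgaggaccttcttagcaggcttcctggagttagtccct
Amotl1 OS 3146: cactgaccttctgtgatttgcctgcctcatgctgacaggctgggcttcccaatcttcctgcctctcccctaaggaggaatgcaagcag
Amotl2 OS 503: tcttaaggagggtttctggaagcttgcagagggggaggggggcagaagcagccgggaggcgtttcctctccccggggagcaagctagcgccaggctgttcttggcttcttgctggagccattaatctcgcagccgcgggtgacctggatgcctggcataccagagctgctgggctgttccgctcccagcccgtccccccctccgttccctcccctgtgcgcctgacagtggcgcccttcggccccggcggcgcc
Amotl2 OS 2131: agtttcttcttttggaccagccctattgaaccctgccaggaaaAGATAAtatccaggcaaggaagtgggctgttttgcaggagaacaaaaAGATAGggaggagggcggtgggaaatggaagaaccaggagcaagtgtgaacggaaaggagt
Wwtr1 OS 708: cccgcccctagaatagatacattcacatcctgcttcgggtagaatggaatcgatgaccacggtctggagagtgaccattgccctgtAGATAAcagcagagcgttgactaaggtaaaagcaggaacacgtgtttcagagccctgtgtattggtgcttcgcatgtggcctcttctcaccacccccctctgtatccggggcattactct
Tead1 OS 2954: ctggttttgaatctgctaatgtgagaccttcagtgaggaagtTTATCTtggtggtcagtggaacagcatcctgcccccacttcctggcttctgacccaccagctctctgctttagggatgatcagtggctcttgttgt
Amotl2 OS 503 and Amotl1 OS 3146 hold no capitals, which means only that none of these letters occur inside the called interval. The Amotl1 OS 2924 sequence holds its motif beside a long run of CA dinucleotides.

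The angiomotin genes held most of the OS, 7 of 10. Amotl2 (ENSMUSG00000032531.8, chr9:102619002-102635748, plus strand, 16.7 kb) had 5 common OS, a number reached or passed by only 106 of 22380 protein-coding genes (0.474%) under the same rule. Since the genes were picked with the peaks known, that share is a description of Amotl2 and no support for it.

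The OS of Amotl2 with the lowest number was OS 503 (chr9:102628662-102628915, 254 bp). It lay 9.79 kb downstream of the 5′ end of the gene, in intron 5 or 6 depending on the transcript. It was 6171 bp from the nearest TSS of a protein-coding Amotl2 transcript and 1873 bp from the start of a non-coding one. The MACS2 peak at the same place was number 373 of 5867. This OS was the richest in G and C of the 10, at 67.3%, with 16 CpG dinucleotides, and its nearest GATA motif lay outside the called interval, 201 bp from the midpoint. Thus the site of Amotl2 that both callers listed earliest was one of the sites without the motif.

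Closer to the start of Amotl2 lay OS 2131 (chr9:102624514-102624664, 151 bp), in intron 2 or 3, with 2 GATA motifs at 29 bp to the left and 18 bp to the right of its midpoint. It was 5587 bp from the 5′ end of the gene, 1972 bp from the nearest TSS of a protein-coding Amotl2 transcript and 57 bp from the start of a non-coding one. OS 2857 (chr9:102612248-102612365, 118 bp) was the only one upstream of Amotl2, 6696 bp before its 5′ end, and its interval held no motif, although one began just outside it.

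The remaining OS of Amotl2 lay in the sequence that follows the gene. OS 2081 (chr9:102672573-102672723, 151 bp) was 36.9 kb beyond the gene end and carried 2 GATA motifs. OS 3093 (chr9:102681880-102682199, 320 bp) was 46.3 kb beyond it and carried 1. No other protein-coding gene reached into the Amotl2 window, and Amotl2 was the gene with the nearest TSS for all 5 OS, at 39587 bp and 48978 bp for the distal pair. OS 3093 is the member OS closest to the limit of 50 kb. On the other side of the limit, the nearest common OS was 157 kb from Amotl2, close to Ryk, the gene of a receptor-like kinase.

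MACS2 listed a further peak at Amotl2 that SPP did not, number 4452 (chr9:102619507-102620374, 868 bp). It held several annotated Amotl2 transcript starts, with its midpoint 938 bp from the 5′ end of the gene and 58 bp before the start of a protein-coding transcript. It was 64.5% G and C with 69 CpG dinucleotides, held no GATA motif, and held 3 TEAD motifs, here GGAATG on either strand. This promoter peak is not a common OS and belongs to the 1496 MACS2 peaks that met no SPP peak.

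Amotl1 (ENSMUSG00000013076.8, chr9:14346410-14447973, minus strand, 102 kb) held its 2 common OS side by side in the first intron of the transcript that starts at its 5′ end. OS 2924 (chr9:14446732-14446893, 162 bp) was 1161 bp and OS 3146 (chr9:14446331-14446418, 88 bp) 1599 bp downstream of the 5′ end, with 438 bp between their midpoints. Both fell in 1 MACS2 peak of 1091 bp (chr9:14445931-14447021), so MACS2 reported as 1 region what SPP reported as a pair. Of all MACS2 peaks, 38 met more than 1 common OS in this way. Among all 4409 OS, 132 (2.99%) had another OS midpoint within 1000 bp.

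In the MACS2 list this Amotl1 region was number 1763 of 5867, whereas the pair were numbers 2982 and 3226 of 4811 in the SPP list. OS 2924 held 1 GATA motif, and OS 3146 held none and 1 TEAD motif. Other Amotl1 transcripts start within the gene, and a peak found only by MACS2, number 5600 (chr9:14412965-14413375), lay 5860 bp downstream of the nearest of those starts, without a GATA motif.

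**Figure D1:**
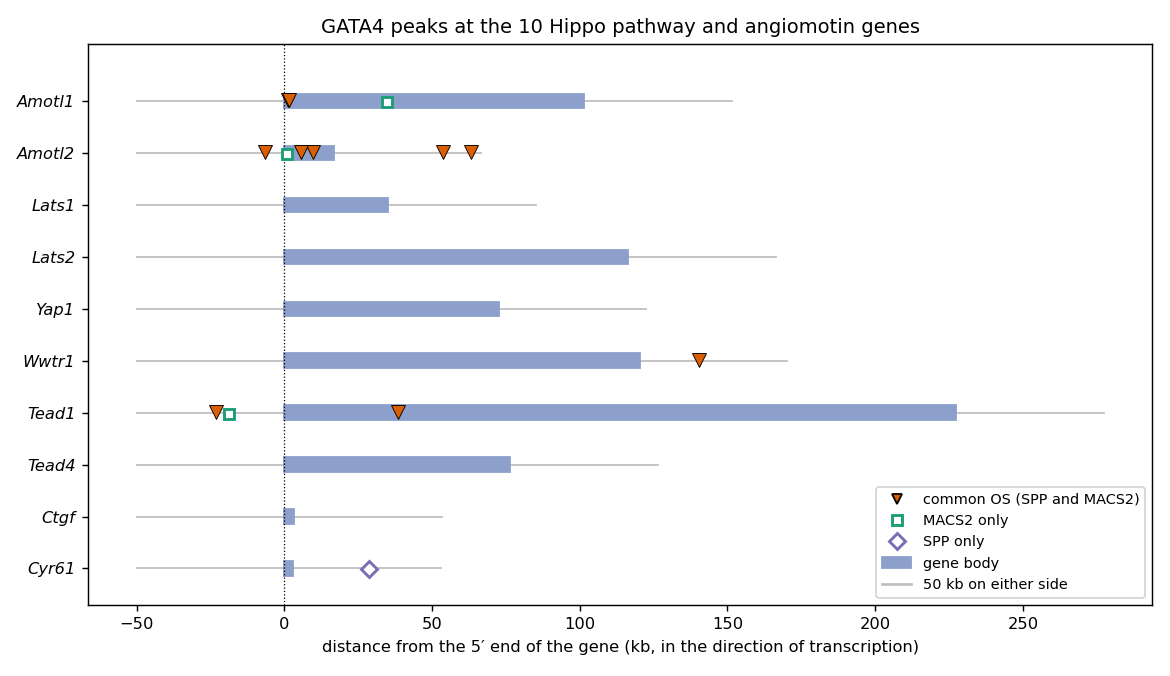
Common OS (triangles), peaks found by MACS2 only (squares) and by SPP only (diamond) at the 10 genes; the horizontal axis is the distance in kb from the 5′ end of each gene along its direction of transcription, bars are gene bodies and lines the 50 kb on either side. The pair of Amotl1 OS, 438 bp apart, falls on 1 triangle, Amotl2 holds 5 common OS, and Lats1, Lats2, Yap1, Tead4 and Ctgf show no mark of any kind.

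The coactivator genes differed. Wwtr1 (ENSMUSG00000027803.8, chr3:57259571-57379832, minus strand, 120 kb) had 1 common OS, OS 708 (chr3:57239304-57239509, 206 bp), which was number 1255 in the MACS2 list and held 1 GATA motif 13 bp from its midpoint. It lay 20.2 kb beyond the end of Wwtr1, inside Tm4sf4, which encodes a tetraspanin-like membrane protein, and 10170 bp from the Tm4sf4 start. Of the 10 member OS it was the only one whose nearest TSS belonged to another gene. Yap1 (ENSMUSG00000053110.7, chr9:7931999-8004596, minus strand) had no peak in any of the 3 lists, and the nearest common OS was 1093 kb away.

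Among the DNA-binding partners, Tead1 (ENSMUSG00000055320.8, chr7:119822832-120050319, plus strand), the longest member at 227 kb, had 2 common OS far from its start. OS 2954 (chr7:119861275-119861412, 138 bp) lay 38511 bp downstream of the 5′ end, in intron 1 or 2, and 24216 bp before the next start of a protein-coding transcript. OS 3077 (chr7:119799786-119799865) lay 23007 bp upstream, within a long non-coding RNA gene that the annotation names 2310014F06Rik. At 80 bp it had the smallest width that occurs in the common list. Each held 1 GATA motif. A peak found only by MACS2, number 4838 (chr7:119803865-119804287), lay 18756 bp upstream and held 2. Tead4 (ENSMUSG00000030353.9, chr6:128174306-128250841, minus strand) had no peak in any list within 50 kb, and its nearest common OS, number 1928, was 99.9 kb away near Tspan9.

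The kinase genes had none. Around Lats1 (ENSMUSG00000040021.6, chr10:7401007-7436256, plus strand) the nearest common OS was 123 kb away, and around Lats2 (ENSMUSG00000021959.9, chr14:58260914-58377225, minus strand) it was 1016 kb away. Neither had an SPP or MACS2 peak within 50 kb.

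Ctgf and Cyr61, which encode secreted matricellular proteins and are the targets most often used as a readout of YAP1, had no common OS either. At Ctgf (ENSMUSG00000019997.4, chr10:24315248-24318489, plus strand) the nearest was OS 316 at 101 kb, and at Cyr61 (ENSMUSG00000028195.3, chr3:145309935-145312949, minus strand) it was OS 847 at 113 kb, near Ddah1. Cyr61 had 1 peak that only SPP called, number 3320 of 4811 (chr3:145284251-145284570), 28539 bp downstream of its 5′ end and holding 1 GATA motif and 1 TEAD motif. It is 1 of 402 SPP peaks that met no MACS2 peak. A gene without a listed peak may still carry binding below the thresholds of the callers.

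The 4 genes with an OS were 40% of the 10, against 27.7% of all protein-coding genes, a share at which 2.77 of 10 genes would hold one, so the members lay close to the background at this reach. Counting gene bodies alone gave 3 members (30%), Amotl1, Amotl2 and Tead1, against 7.67% of all protein-coding genes, and a reach of 5 kb gave those 3 against 11.3%. With the MACS2 list 4 members had a peak within 50 kb, against 33.9% of all genes, and with the SPP list 5 did, against 29.2%. These members were long genes, with a median length of 74.6 kb against 15.4 kb for all protein-coding genes. Among them Amotl2, at 16.7 kb, held 5 common OS, Tead1, at 227 kb, held 2, and Lats2, at 116 kb, held none. The part of gene length in these shares was not tested. Per length, the windows of the 10 genes held 5.64 common OS per Mb and those of all protein-coding genes 2.33. Without Amotl2 the members' density was 3.02 per Mb, so much of the difference came from 1 gene.

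**Figure D2:**
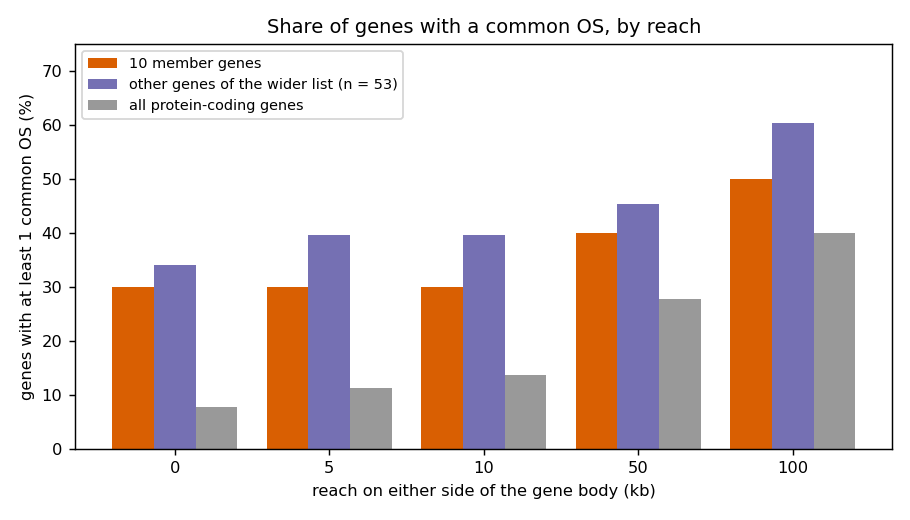
Percentage of genes with at least 1 common OS (vertical axis) by the reach in kb allowed on either side of the gene body (horizontal axis), for the 10 members, the 53 other genes of a wider Hippo list and all 22380 protein-coding genes. Members rise from 30% in the body to 40% at 50 kb while all protein-coding genes rise from 7.67% to 27.7%; gene length differs between the groups.

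The member OS spread over the common list from number 503 to 3146 of 4409, with a median of 2890 against 2205 over all OS. Only 4 of them, Amotl2 OS 503, OS 2081 and OS 2131 and Wwtr1 OS 708, were among the upper 2204. The numbering of the SPP and MACS2 lists is not explained in the files, and the methods state only that, to compare replicates, SPP peaks were ranked on their signal and those of MACS2 on the p-value. All 10 were met by a MACS2 peak, through 9 different MACS2 peaks numbered 373 to 3351. Amotl2 OS 2081 and OS 2131 stood close together in the SPP list, as numbers 2096 and 2146, and farther apart in the MACS2 list, as numbers 1999 and 3279.

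**Figure D3:**
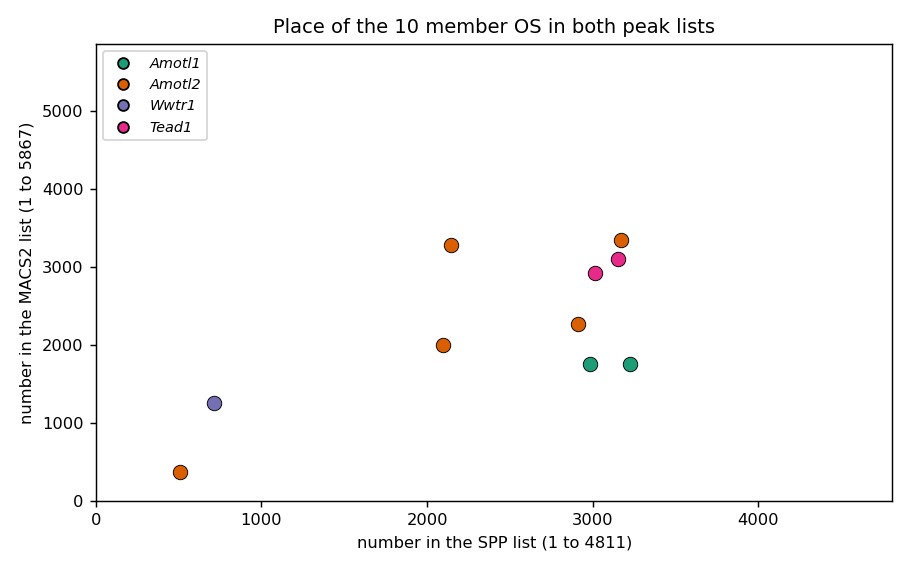
Number of each of the 10 member OS in the SPP list (horizontal axis, 1 to 4811) and of the MACS2 peak it met (vertical axis, 1 to 5867), coloured by gene. Amotl2 OS 503 and Wwtr1 OS 708 lie apart at the low end of both lists, and the Amotl1 pair shares 1 MACS2 number, 1763.

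A GATA motif was present in 7 of the 10 member OS (70%, Wilson 95% interval 39.7 to 89.2, which covers counting error only), against 82.9% of all common OS. The interval treats the OS as independent, although 5 lie at Amotl2 and 2 lie 438 bp apart at Amotl1, so it is no test. The 7 OS held 9 motifs in all. Widening the scan to 500 bp around each midpoint brought the count to 9 of 10, against 89.6% of all OS scanned over the same length, and Amotl1 OS 3146 was then the only one without a match. In the central 100 bp the counts were 6 of 10 against 74.3%. For this motif the share over all OS lay within the members' interval at each length. With a looser form, GATA with either of these flanking bases alone, the members' count over the whole OS was again 7 of 10. The share over all OS was then 92.9%, above the members' interval. In the central 100 bp the looser form gave 6 of 10 (interval 31.3 to 83.2) against 85.7%, also above. In 500 bp it gave 9 of 10 (interval 59.6 to 98.2) against 97.6%, which lay within.

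The TEAD motif GGAATG, read on both strands, was searched because TEAD factors are the DNA-binding partners of the pathway. It occurred in 2 of the 10 OS (20%, Wilson 95% interval 5.67 to 51), against 12.5% of all common OS. Amotl2 OS 3093 alone held 3, at 64, 48 and 22 bp to the left of its midpoint, and Amotl1 OS 3146 held 1. In 500 bp around the midpoint the counts were 4 of 10 and 26.7%. In the central 100 bp they were 3 of 10 (30%, Wilson 95% interval 10.8 to 60.3) and 6.37%, the only scanned length at which the share over all OS lay below the members' interval, and the added match, at Tead1 OS 3077, lies outside its called interval of 80 bp. The AP-1 letters TGANTCA and the forkhead letters TGTTTNC, both chosen after the data were seen, occurred in 0 of the 10 OS on either strand, against 7.55% and 25.9% of all OS. In 500 bp they occurred in 2 and 1 of the 10, against 15.4% and 47.2%, and for the forkhead letters the latter is above the members' Wilson 95% interval of 1.79 to 40.4%. These are a few among 18 pairs of letters and length compared, with no adjustment for their number. As for the GATA motif, the intervals treat the 10 OS as independent and are no test. A match of letters is a description of the sequence and does not show that a factor binds there.

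**Figure D4:**
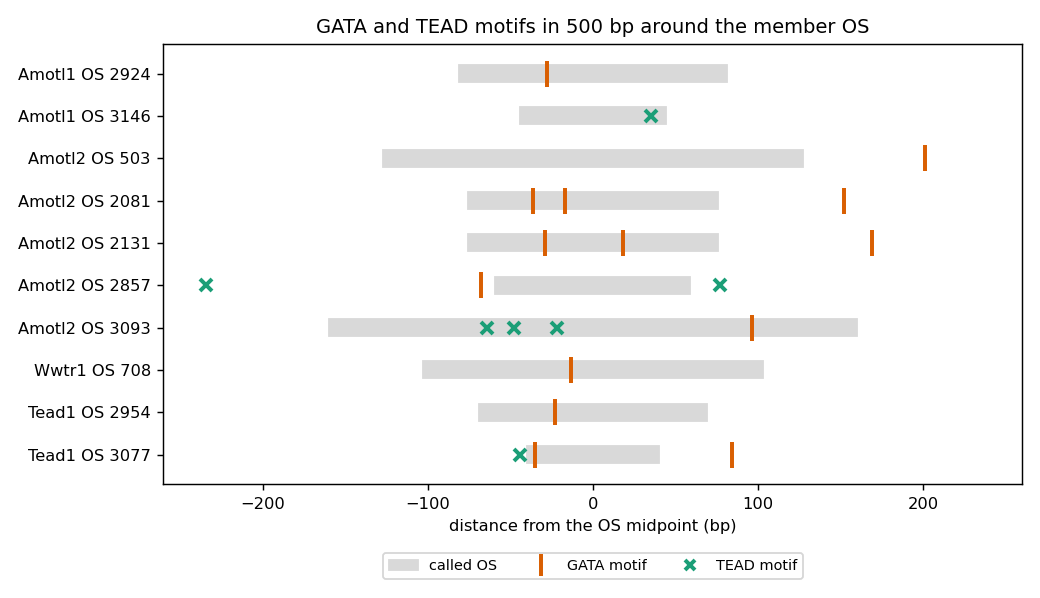
GATA motifs (bars) and TEAD motifs (crosses) in 500 bp around the midpoint of each of the 10 member OS; the horizontal axis is the distance from the midpoint in bp and grey boxes are the called intervals. The intervals of 7 OS hold a GATA motif, and Amotl2 OS 503 and OS 2857 have one only outside the box.

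The median width of the member OS was 151 bp (range 80 to 320) against 190 bp over all OS, and the median G and C content was 51.28% (range 47 to 67.3) against 49.38%. CpG dinucleotides were missing from 2 of the 10 (20%), Amotl1 OS 3146 and Tead1 OS 2954, against 10.9% of all OS. In place, 5 lay inside the member gene, all of them in introns, 2 upstream and 3 downstream.

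To set the 10 genes in their pathway, 63 Hippo genes including them were listed by role, and 28 had a common OS in the body or within 50 kb. Of the 53 that are not members, 24 had one (45.3%), against 27.7% of all protein-coding genes. In gene bodies alone the share was 34% against 7.67%. These 53 genes were long too, with a median of 58.8 kb, and their windows held 3.85 OS per Mb against 2.33.

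Junction and upstream genes had an OS in 6 of 13 cases (46.2%), beside 27.7% of all protein-coding genes. Crb3, an apical polarity protein of epithelia, had OS 32, the lowest number of the wider list, 1.43 kb downstream of its start in intron 1, with the start of Slc25a23 nearer still. Fat4, a giant protocadherin and the receptor of the Dchs1 ligand, had 2 OS, OS 2215 and OS 3450, in its gene body, and Dchs1 had OS 2406 and OS 4172, both nearer to another gene. The tight-junction scaffold genes Tjp1 (OS 1979) and Inadl (OS 1162) had 1 each. That of Tjp1 lay outside the gene, 46.2 kb upstream of its start. That of Inadl lay in an intron but nearer to the start of another gene.

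Kinase cassette genes had one in 5 of 15 (33.3%), beside 27.7% of all protein-coding genes. Mob1b, the adaptor that activates LATS kinases, had OS 176 at 3.5 kb from its start in intron 1, with 3 GATA motifs, and OS 3395. Stk3, the MST2 kinase, had OS 1485 in an intron. Of the MAP4K kinases, which act beside MST kinases, Map4k2 had OS 439 and OS 2116, Map4k3 had OS 3396 and Map4k5 had OS 98. Map4k2 OS 439 and Map4k5 OS 98 lay outside these genes and nearer to another protein-coding gene.

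Of the angiomotins and other YAP1 partners, 5 of 7 had an OS. These were all 3 angiomotin genes, with OS 3147 in an Amot intron holding 3 GATA motifs, the phosphatase gene Ptpn14 (OS 2493) and Limd1 (OS 3128), a LIM-domain inhibitor of LATS. Among DNA-binding factors and competitors, 3 of 8 had one, namely Tead1, Tead3 (OS 2947) and Vgll4 (OS 3375 and OS 4308), whose product competes with YAP1 for TEAD. Limd1 OS 3128, in an exon, and Tead3 OS 2947, outside its gene, were nearer to the start of another gene. The share of all protein-coding genes was 27.7%. With 2 coactivators and 7 to 22 genes in the other groups, these counts cannot rank the roles.

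In the signature of 22 YAP/TEAD targets, 10 had an OS (45.5%), beside 27.7% of all protein-coding genes. Gadd45a, a stress-response gene, had OS 213 at 36 bp from its start, without a GATA motif, and OS 3472. Nuak2, a kinase of the AMPK family, had 4, numbers 683, 947, 1924 and 2199, of which 2 were nearer to another protein-coding gene, and Rbms3, an RNA-binding protein gene of 1057 kb, had 4 in its body with OS 425 as the lowest. The others were Amotl2, Asap1 (OS 678 and OS 3617), Axl (OS 1043 and OS 3792), Crim1 (OS 1248 and OS 2967), Nt5e (OS 780), Ptpn14 and Arhgef17 (OS 4178). Of these, Asap1 OS 678, Axl OS 1043, Crim1 OS 2967 and Arhgef17 OS 4178 were nearer to another protein-coding gene. Axl OS 1043 and Crim1 OS 2967 also lay outside the gene body.

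**Figure D5:**
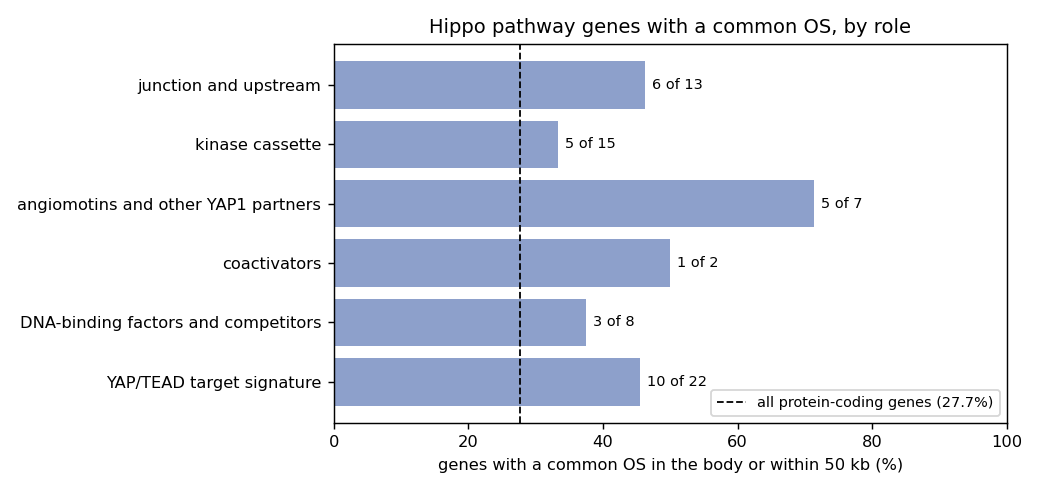
Percentage of genes of each Hippo role with a common OS in the body or within 50 kb (horizontal axis), with counts beside the bars; the dashed line is the 27.7% of all protein-coding genes. Groups range from 5 of 15 kinase genes to 5 of 7 angiomotins and YAP1 partners, and genes can stand in more than 1 group.

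Whole liver holds hepatocytes, endothelial cells, stellate cells, Kupffer cells and cholangiocytes, and a peak list does not show in which of them GATA4 occupied a site. By the same rule of 50 kb, a common OS was found at 8 of 8 endothelial, 5 of 8 hepatocyte, 1 of 8 Kupffer, 1 of 8 cholangiocyte and 0 of 8 stellate cell marker genes. The share of all protein-coding genes at this reach was 27.7%, and gene length was not matched between these groups. The Kupffer OS, at Cd68, lay 49.9 kb from the gene start and nearer to the start of another gene. The hepatocyte genes Alb and Cps1 and the endothelial gene Lyve1 also had common OS only beyond 5 kb of the gene. The part of each cell type in the OS of the Hippo genes was not tested here. The paper lists Amotl2 among genes raised in purified hepatocytes after Gata4 excision from hepatocytes, at a threshold it calls relaxed. The GATA4 sites it gives for Amotl2 contain OS 503 and OS 2131. By the paper, RT-qPCR also showed the rise, and ChIP-qPCR showed GATA4 at Amotl2. Loss of GATA4 occupancy after the excision was reported at other genes.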

How the data were processed

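GATA4 ChIP and input DNA of whole mouse liver were sequenced after 18 cycles of PCR and selection of fragments of 250 to 450 bp. The authors aligned reads to mm9 with Bowtie 0.12.7, kept unique reads, ran MACS2 2.0.10 and an adapted SPP on the replicates singly and merged, with merged input as the control, set thresholds by the irreproducible discovery rate (IDR), and intersected the lists with bedtools 2.16.1, keeping SPP coordinates. The deposited files are browser tracks with a position and a score for each peak, and the deposited score is 1000 throughout, so list numbers were given instead. The input has no file and entered only through the calls.

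Here 0-based starts were turned to 1-based. The reference was NCBI Build 37, of the same build, with GENCODE M1 (95495 transcripts, 22380 protein-coding genes by identifier, and every peak within its chromosome). A peak belonged to a gene when its midpoint lay in the span of all its transcripts or within 50 kb, and lists overlapped at 1 bp or more. Region and intron numbers came from protein-coding transcripts. Motifs were matched exactly on both strands. Intervals are Wilson 95% intervals. Neighbouring genes can share an OS.

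The members and lists were chosen with earlier results of these data known. All members were named, and the wider-list genes with a common OS, except 1 that is counted but not reported here. The alternatives were the reach, any overlap, each caller's list, the upper part of the list, the longest transcript, the scanned length and the motif form, and leaving out Amotl2 was added after seeing the data. Scripts ran under Python 3.11.15 with scipy 1.17.1, numpy 2.4.6, pysam 0.24.0, matplotlib 3.10.9 and samtools 1.23.1. On simulated data 300 of 300 sequences and 300 of 300 windows were read correctly. The simulated sequences were runs of C with or without a planted motif, so this checks the code only.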

Additional observations from a re-analysis of the deposited data

How the results depend on the processing

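The 10 common OS at the members became 5 with gene bodies alone or a reach of 5 kb, 6 with 10 kb and 4 in the upper part of the list, where 2 members kept an OS. In the wider list 17 genes had one in that upper part, against 28. The protein-coding genes with an OS, 6194 at 50 kb, were 1717 in bodies alone, 2538 at 5 kb, 3056 at 10 kb and 3572 with the upper part of the list. The share of member OS with a GATA motif rose from 70% to 90% when 500 bp were scanned. Without Amotl2, a setting added after seeing the data, the density fell from 5.64 to 3.02 OS per Mb. The other 41 of 53 alternatives left counts and medians within 1.5 times and shares within their interval. No paired analysis was possible because there is 1 ChIP sample. Peak lists without counts set no depth limit for a single site.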
